A study of Mus musculus with 6 samples.

Results

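The genes followed here encode 53 transcription factors of sinusoidal and general endothelial identity and of the response to blood flow, measured in liver sinusoidal endothelial cells (LSECs) with and without *Txnip*. They were picked by symbol, and all 53 were among the 23282 rows of the count files. Of these, 48 passed the filter on low counts, as did 11583 rows in all. RNA came from LSECs of 3 *Txnip*-/- libraries and 3 WT libraries. The *Txnip*-/- mice carried the deletion in every cell of the body, on a C57BL/6J background, and the controls were C57BL/6J mice. LSECs were taken from collagenase-perfused livers by density gradient and anti-CD146 magnetic beads. Mice of the study were kept on chow, and selected LSECs were placed in endothelial growth medium. The age and sex of the mice used for these libraries, the number of mice behind each, and whether and how long cells were cultured before RNA extraction were not given in the sources used here. The p-values therefore measure the spread between libraries, which may be technical. QuantSeq reads one fragment near the 3′ end of a transcript, so its counts do not grow with transcript length and levels of different genes can be set side by side without dividing by length. Levels are in CPM, the count scaled to a common library size with TMM, a correction for library composition.

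LSECs line the liver sinusoids with open pores and clear waste from the blood. GATA4 is the factor best known for holding LSECs in this state, and c-MAF (*Maf*) and MEIS2 are further factors of sinusoidal identity. ERG, FLI1 and ETS1 of the ETS family and the SOXF factors keep endothelial genes active in all vessels. KLF2 and KLF4 are induced by shear stress through MEF2 factors and hold endothelium quiescent.

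*Txnip* counts were 269, 216 and 191 in *Txnip*-/- and 1901, 2019 and 1994 in WT replicates 1 to 3, so each library matched its label (log2 fold change -3.02, with a standard error, SE, of 0.14, adjusted p = 6.94e-10). Library totals lay between 9147764 and 10193952 counts. WT replicate 3 stood apart from WT replicates 1 and 2: the chi-square per degree of freedom between libraries was 36.9 and 40.0 for its pairs and 3.93 for the other WT pair, against 8.41 to 9.62 among *Txnip*-/- libraries. The rRNA precursor row made up 16.8% to 18.6% of each *Txnip*-/- library and 17.8% of WT replicate 3, but 10.03% and 9.68% of WT replicates 1 and 2. Its part in the results was not tested. No count of calls among the factors changed when this row was left out. That step hardly moves other genes (*Ets1* log2 fold change 0.3697 either way), so it cannot show what goes along with this share. Endothelial markers were abundant, with *Pecam1* at 833 to 1098 CPM and *Cdh5* at 1005 to 1210 CPM over all libraries. Of 20 LSEC markers, 4 were lower in *Txnip*-/- LSECs at an adjusted p under 0.05 (*Stab1*, *Stab2*, *Mrc1* and *F8*) and 0 were higher, with a median log2 fold change of -0.38. Of 20 Kupffer cell and macrophage markers, 19 were tested and 15 were lower. Their summed level was 395 to 424 CPM in *Txnip*-/- and 921 to 963 CPM in WT libraries, and the defining genes *Clec4f*, *Adgre1* and *Csf1r* had counts in every library, while *Timd4*, under the filter, had 0, 11 and 5 counts against 12, 2 and 3. Stellate cell and fibroblast markers summed to 63.2 to 78.1 CPM in *Txnip*-/- and 30.6 to 37.2 CPM in WT libraries, with *Dcn* and *Acta2* higher among 10 tested. Hepatocyte markers summed to 54.9 to 65.0 against 50.3 to 51.9 CPM. The 7 lymphocyte genes in the files had at most 4 counts in any library; *Cd3g* and *Cd79a* had some counts and the others, *Cd3e* and *Ms4a1* among them, had 0 throughout. The part of these other cells in the results that follow was not tested, and in bulk RNA fewer cells of a type and less RNA per cell cannot be told apart.

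Across the 48 tested factors, 1 fell and 1 rose in *Txnip*-/- LSECs by edgeR's quasi-likelihood test at an adjusted p under 0.05. The gene that fell was *Maf*, and the one that rose was *Ets1*. These are 2 of 48 factors, or 4.17%, where 1.55% of all tested genes were called (0.976% lower and 0.57% higher). Of the 48 factors, 33 had a lower mean in *Txnip*-/- LSECs, and their median log2 fold change was -0.12, beside -2.75e-05 over all tested genes. At an unadjusted p under 0.05, 12 factors were lower and 5 higher, where 6.05% and 5.48% of all tested genes were. For 12 factors the highest *Txnip*-/- library was under the lowest WT one, or 25% of the 48 against 8.94% of all tested genes. For 5 factors the order was the opposite, or 10.4% against 8.43%. These shares were not matched by level. A mean of at least 10 CPM was reached by 40 of the 48 factors and by 8025 of all 11583 tested genes. Most differences were small, as they were over all tested genes. In 38 factors the estimate stayed within 1.3-fold, as it did for 9081 of all 11583 tested genes. In 14 factors the whole 95% interval stayed within it. Without WT replicate 3, calls rose over all genes, from 113 lower and 66 higher of 11583 tested to 230 and 137 of 11922. Among the factors, 4 were then called lower (*Maf*, *Meis2*, *Nr2f2* and *Klf7*) and *Ets1* alone higher. With WT replicates 1 and 2 both left out, only *Maf* was called.

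**Figure D1:**
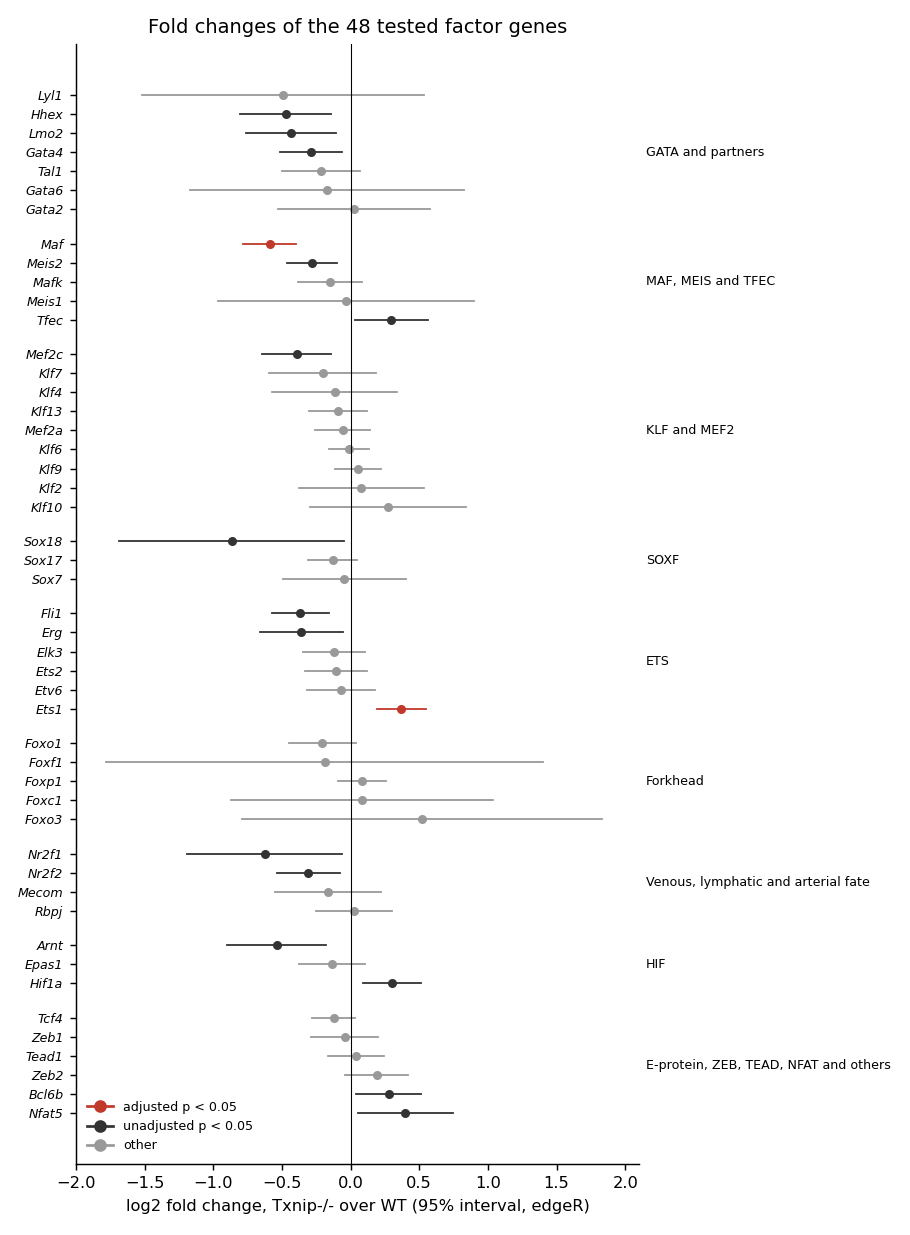
Log2 fold change of each of the 48 tested factor genes in *Txnip*-/- over WT LSECs on the horizontal axis, with its 95% interval, grouped by family; red marks an adjusted p under 0.05, dark grey an unadjusted p under 0.05 and light grey the rest. *Maf* at -0.59 and *Ets1* at 0.37 are the red points, and the widest intervals belong to genes of few counts such as *Foxf1* and *Foxo3*.

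*Maf* encodes c-MAF, a large MAF factor of the bZIP class that acts in LSECs and also in macrophages. It lies on chromosome 8 of GRCm38 (115682942 to 115707794, minus strand). Its level was 115.3, 115.1 and 114.4 CPM in the *Txnip*-/- libraries and 174.3, 171.3 and 173.5 CPM in the WT libraries. The libraries of each genotype were almost alike and the groups were far apart, with WT replicate 3 beside the other WT libraries. The mean thus went down by 33.6%, from 173 ± 1.57 to 115 ± 0.49 CPM (SD over 3 libraries; log2 fold change -0.59, SE 0.09, adjusted p = 0.00129, edgeR). At 1033 to 1798 counts a library, counting error alone is larger than these SDs, so such closeness is no measure of precision. Leaving out any library moved the log2 fold change only within -0.60 to -0.59, with an adjusted p of at most 0.0145. Beside *Maf*, the log2 fold changes of the 19 tested macrophage markers had a median of -1.36 and ran from -2.07 to -0.14. *Cd163* fell by 76.1% and *Marco* by 52.4%, while *Fcer1g* fell about as much as *Maf* (-0.58, adjusted p = 0.0295) and *Coro1a*, with few counts, overlapped (-0.14, adjusted p = 0.97).

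*Mafk*, a small MAF protein without an activation domain, was at 73.5, 84.5 and 91.6 CPM in *Txnip*-/- and 90.1, 92.4 and 94.8 CPM in WT libraries. The groups overlapped, and the difference did not pass (log2 fold change -0.15, SE 0.11, adjusted p = 0.665); its 3′ end overlaps an exon of *Tmem184a* on the other strand. *Meis2*, a TALE homeobox factor of LSECs, was at 231.6, 223.0 and 239.8 CPM against 289.9, 288.5 and 264.4 CPM. All *Txnip*-/- libraries lay below all WT libraries, with WT replicate 3 the closest to them, and the test did not pass after adjustment (log2 fold change -0.28, 95% interval -0.46 to -0.098, adjusted p = 0.146, edgeR). It passed without WT replicate 3 (-0.32, adjusted p = 0.0276). Its paralogue *Meis1* was far less abundant, at 2.43 to 8.37 CPM over all libraries, with a log2 fold change of -0.035 and a wide interval (-0.97 to 0.90). Its sign turned with the libraries used, from -0.40 without WT replicate 3 to 0.34 without WT replicate 1, and was higher still with WT replicate 3 as the only WT library. *Tfec*, a MiT/TFE factor that macrophages also express, was at 69.9, 59.1 and 68.7 CPM in *Txnip*-/- and 59.8, 52.0 and 49.3 CPM in WT libraries. The groups overlapped by 1 library, and the upward estimate did not pass after adjustment (log2 fold change 0.30, SE 0.13, adjusted p = 0.361).

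**Figure D2:**
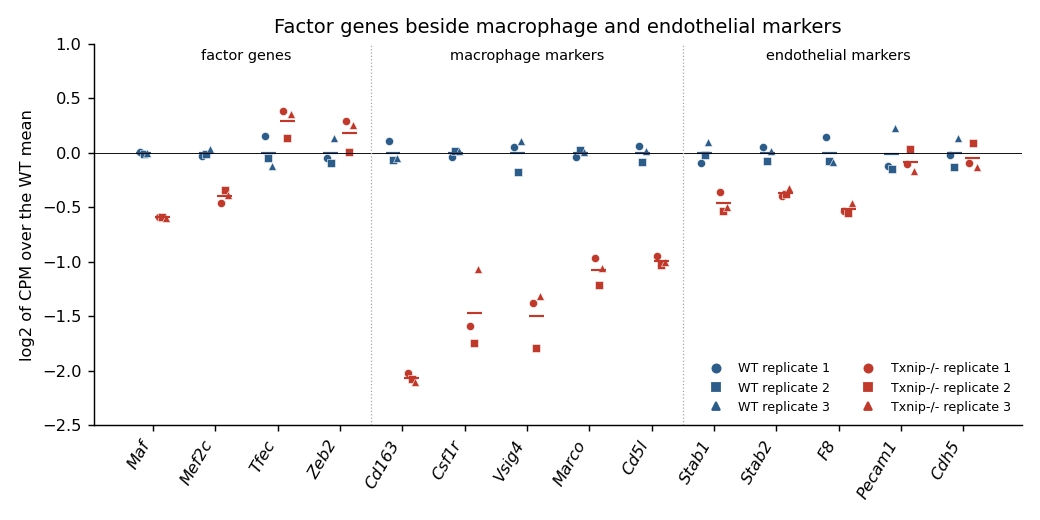
Log2 of the level in each library over the WT mean, for 4 factor genes, 5 macrophage markers and 5 endothelial markers; blue is WT, red is *Txnip*-/-, symbols mark replicates and bars the means. The *Maf* points lie together near -0.59, *Cd163* lies lowest, with a fitted log2 fold change of -2.07, and *Tfec* and *Zeb2* lie at or above 0 in *Txnip*-/- libraries.

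GATA factors bind DNA in endothelium with partners of the TAL1 and LMO2 complex. *Gata4* made up 77.2% to 85.8% of the summed level of *Gata4*, *Gata2* and *Gata6* in the 6 libraries. Its level was 64.9, 64.2 and 65.8 CPM in *Txnip*-/- and 81.3, 81.4 and 75.1 CPM in WT LSECs. All *Txnip*-/- libraries were lower, by 1.22-fold, and the difference did not pass after adjustment (log2 fold change -0.29, 95% interval -0.51 to -0.061, unadjusted p = 0.016, adjusted p = 0.283, edgeR). *Gata2* was at 10.7, 16.4 and 13.3 CPM in *Txnip*-/- and 17.4, 9.43 and 12.9 CPM in WT libraries, with groups that overlapped (log2 fold change 0.024, 95% interval -0.53 to 0.57). *Gata6* had only 25 to 59 counts a library, overlapped, and had a wide interval (-1.17 to 0.83).

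*Lmo2*, which bridges TAL1 and GATA proteins, was at 23.9, 21.8 and 23.7 CPM in *Txnip*-/- and 31.8, 31.1 and 31.1 CPM in WT libraries. *Hhex*, a homeobox factor of early endothelium and liver, was at 23.2, 24.1 and 24.1 against 33.2, 35.9 and 29.8 CPM. Neither gene's groups overlapped, with 1.35-fold and 1.39-fold lower levels, and neither passed after adjustment (log2 fold changes -0.44 and -0.47, unadjusted p = 0.0122 and 0.00786, adjusted p = 0.25 and 0.198). *Tal1*, the basic helix-loop-helix factor of the complex, was also lower without overlap, at 39.3 to 41.0 against 42.5 to 51.6 CPM (log2 fold change -0.22, adjusted p = 0.589). Its paralogue *Lyl1* had 16 to 47 counts a library, overlapping groups and an exon of *Nfix* on the other strand at its 3′ end. In all, 6 of the 7 genes of this family had lower means, where 50% of all tested genes did. For 4 of the 7 the levels were lower without overlap, as for 8.94% of all tested genes. None of the 7 passed after adjustment.

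Among the ETS genes *Ets1* rose, while *Fli1* and *Erg* had lower levels that did not pass after adjustment. *Ets1* lies on chromosome 9 (32636221 to 32757820, plus strand) and was the most abundant of the 6, at 331.5, 337.4 and 353.5 CPM in *Txnip*-/- and 249.1, 274.4 and 267.8 CPM in WT LSECs. All *Txnip*-/- libraries were higher, and the mean rose 1.29-fold from 264 ± 13.1 to 341 ± 11.4 CPM (log2 fold change 0.37, SE 0.08, adjusted p = 0.0319, edgeR). The call was less firm than that of *Maf*. It was lost on leaving out any of 5 of the 6 libraries (adjusted p 0.0952 to 0.243), WT replicate 3 being the exception, while the log2 fold change kept to 0.33 to 0.40.

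*Fli1* is the neighbour of *Ets1* on chromosome 9 (32422204 to 32542861, minus strand), 93.4 kb away, with 0 annotated protein-coding genes between their divergent starts. It was at 104.3, 94.8 and 95.5 CPM in *Txnip*-/- and 123.1, 122.0 and 134.5 CPM in WT LSECs. The groups did not overlap, but the test did not pass after adjustment (log2 fold change -0.37, 95% interval -0.57 to -0.16, adjusted p = 0.0871, edgeR). DESeq2 called it (-0.36, adjusted p = 0.0316). The ratio of *Ets1* to *Fli1* was 3.18, 3.56 and 3.70 in *Txnip*-/- and 2.02, 2.25 and 1.99 in WT libraries. Its separation follows from *Ets1* lying higher and *Fli1* lower without overlap, so it adds no evidence. This ratio, and those below, were computed after the values were seen and are given without a test.

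*Erg*, the closest relative of *Fli1* and a factor that maintains endothelial fate, was at 31.4, 34.9 and 35.3 CPM in *Txnip*-/- and 46.3, 45.1 and 38.7 CPM in WT LSECs. Its *Txnip*-/- libraries were all lower (log2 fold change -0.36, unadjusted p = 0.0219, adjusted p = 0.311). *Erg* and *Ets2* form a second divergent pair, 115 kb apart on chromosome 16. *Ets2* was at 94.5, 115.5 and 112.4 against 107.4, 119.5 and 120.3 CPM and overlapped (log2 fold change -0.11). *Elk3* and *Etv6*, ETS proteins that repress transcription, overlapped as well (-0.12 and -0.071). The summed level of the 6 genes was 703 to 746 CPM in *Txnip*-/- and 679 to 733 CPM in WT libraries, with overlap, while *Ets1* took 47.1%, 45.7% and 47.4% of it in *Txnip*-/- and 36.7%, 37.4% and 37.4% in WT libraries. *Erg* and *Fli1* together took 17.5% to 19.3% and 22.8% to 24.9%.

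**Figure D3:**
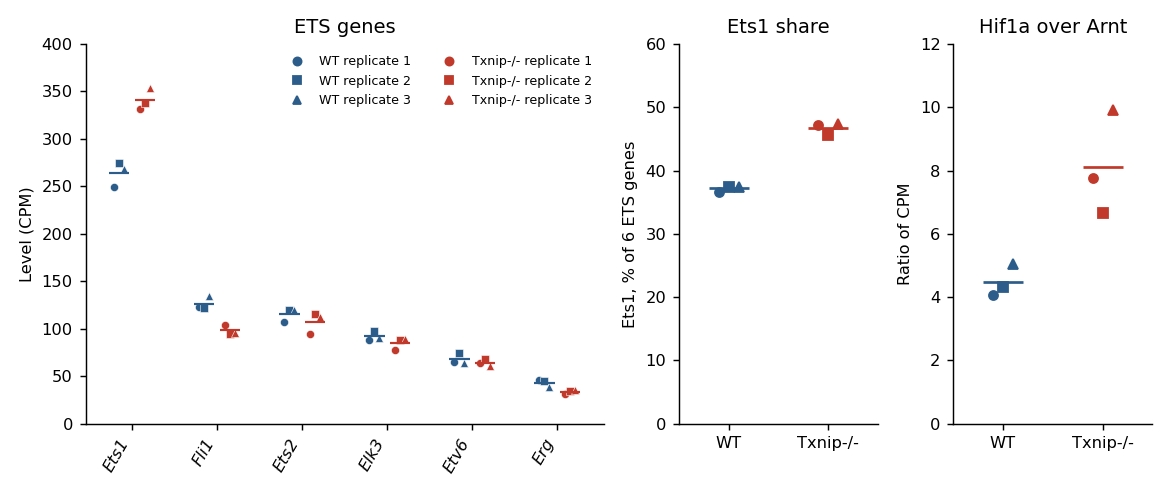
Left, level in CPM of the 6 ETS genes in each WT (blue) and *Txnip*-/- (red) library, with bars for the means; middle, *Ets1* as a percentage of the 6 genes summed; right, the ratio of *Hif1a* to *Arnt* in CPM. *Ets1* lies above and *Fli1* and *Erg* lie below their WT points in every *Txnip*-/- library. The share and the ratio, picked after the levels were seen, are also separated by genotype and are no further evidence.

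The SOXF factors SOX7, SOX17 and SOX18 act in arterial and lymphatic fate. *Sox17* held 89.7% to 94.1% of their summed level. It was at 311.0, 285.5 and 321.0 CPM in *Txnip*-/- and 332.6, 321.2 and 350.2 CPM in WT LSECs. The highest *Txnip*-/- library lay just under the lowest WT library, and the difference did not pass (log2 fold change -0.13, 95% interval -0.31 to 0.049, adjusted p = 0.613). *Sox18* was sparse, at 3.57, 9.07 and 3.42 against 8.47, 13.5 and 7.40 CPM. Replicate 2 was the highest library in both genotypes, the groups overlapped, and its log2 fold change of -0.87 had a wide interval (-1.69 to -0.048, adjusted p = 0.394). *Sox7* overlapped at 14.6 to 23.4 CPM.

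The shear-stress factors showed no call. *Klf2* was at 20.9, 24.7 and 33.6 CPM in *Txnip*-/- and 21.6, 20.5 and 33.0 CPM in WT LSECs. Replicate 3 was the highest library in each genotype and the ranges nearly coincided (log2 fold change 0.078, 95% interval -0.38 to 0.53). *Klf4* was at 20.4, 21.4 and 12.9 against 17.7, 21.9 and 19.8 CPM (-0.12, 95% interval -0.57 to 0.34). Differences inside these intervals could not be told from the spread between libraries.

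*Klf6*, a KLF induced by injury and early growth signals, was by far the most abundant KLF gene and held 60.4% to 64.0% of the 7 KLF genes. It was at 1369, 1362 and 1300 CPM in *Txnip*-/- and 1369, 1366 and 1326 CPM in WT LSECs. No difference was seen, with the smallest SE among the factors, 0.068 (log2 fold change -0.010, 95% interval -0.15 to 0.13). *Klf9*, a glucocorticoid-responsive KLF, was at 418, 434 and 432 against 419, 394 and 424 CPM (0.054, 95% interval -0.11 to 0.22), and *Klf13* at 215, 262 and 256 against 244, 249 and 288 CPM (-0.092). *Klf10*, a TGF-β early response gene, was at 9.49, 9.48 and 8.77 against 8.18, 7.14 and 7.62 CPM, higher without overlap by 1.21-fold (adjusted p = 0.786). *Klf7* was at 88.1, 84.5 and 108.1 CPM in *Txnip*-/- and 125.0, 131.3 and 66.3 CPM in WT libraries. WT replicate 3 was the lowest of all 6 libraries, so the genotypes overlapped with it (log2 fold change -0.20, adjusted p = 0.761) and parted without it (-0.45, adjusted p = 0.0313). With WT replicate 3 as the only WT library the estimate turned upwards (0.50, adjusted p = 0.268). Its 3′ end overlaps an exon of *Gm26649* on the other strand, and this gene was singled out after its values were seen.

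MEF2 factors drive *Klf2* and *Klf4*. *Mef2c* was at 45.6, 49.4 and 47.7 CPM in *Txnip*-/- and 61.2, 62.2 and 64.0 CPM in WT LSECs. The groups were well separated, but the test did not pass after adjustment (log2 fold change -0.39, 95% interval -0.64 to -0.14, unadjusted p = 0.00395, adjusted p = 0.135, edgeR). *Mef2a* was several times more abundant, at 207, 218 and 248 against 248, 220 and 233 CPM, and overlapped (-0.057).

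Among forkhead factors none had an unadjusted p under 0.05. *Foxo1*, held in check by insulin and growth factor signals, was at 65.1, 61.9 and 55.0 CPM in *Txnip*-/- and 69.3, 69.3 and 71.3 CPM in WT LSECs. It was lower without overlap by 1.15-fold (log2 fold change -0.21, adjusted p = 0.531). *Foxp1*, the most abundant of them, was at 272, 266 and 263 against 253, 252 and 252 CPM, higher without overlap by 1.06-fold (0.082, adjusted p = 0.79, and -0.00024 without normalization factors). *Foxf1*, a factor of lung and visceral vessels, had 13, 4 and 26 counts in *Txnip*-/- and 19, 15 and 19 in WT libraries. *Foxc1* and *Foxo3* were sparse as well, with 9 to 104 counts a library, and all 3 genes overlapped between the genotypes. Their 95% intervals spanned more than 2-fold in at least one direction, so the data say little about them.

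Of the factors of venous, lymphatic and arterial fate, *Nr2f2* (COUP-TFII), which specifies veins, was the most abundant. It was at 256.6, 258.3 and 304.3 CPM in *Txnip*-/- and 355.0, 377.4 and 280.8 CPM in WT LSECs. WT replicate 3 fell among the *Txnip*-/- libraries, and the difference did not pass (log2 fold change -0.31, SE 0.11, adjusted p = 0.249, edgeR). Without WT replicate 3 it did (-0.42, adjusted p = 0.00632). Its paralogue *Nr2f1* was likewise lowest in replicate 3 among the WT libraries, at 8.93, 17.1 and 19.0 against 27.1, 27.0 and 15.7 CPM (-0.63, adjusted p = 0.366). The estimate was -0.84 without WT replicate 3, -0.36 without *Txnip*-/- replicate 1 and -0.056 with WT replicate 3 as the only WT library, with no call in any of these. *Rbpj*, the DNA-binding factor of Notch signalling, was at 40.3, 44.9 and 47.4 against 42.4, 43.3 and 44.4 CPM, with groups that overlapped (0.026, 95% interval -0.25 to 0.30), and *Mecom*, an arterial factor, overlapped too (-0.17).

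**Figure D4:**
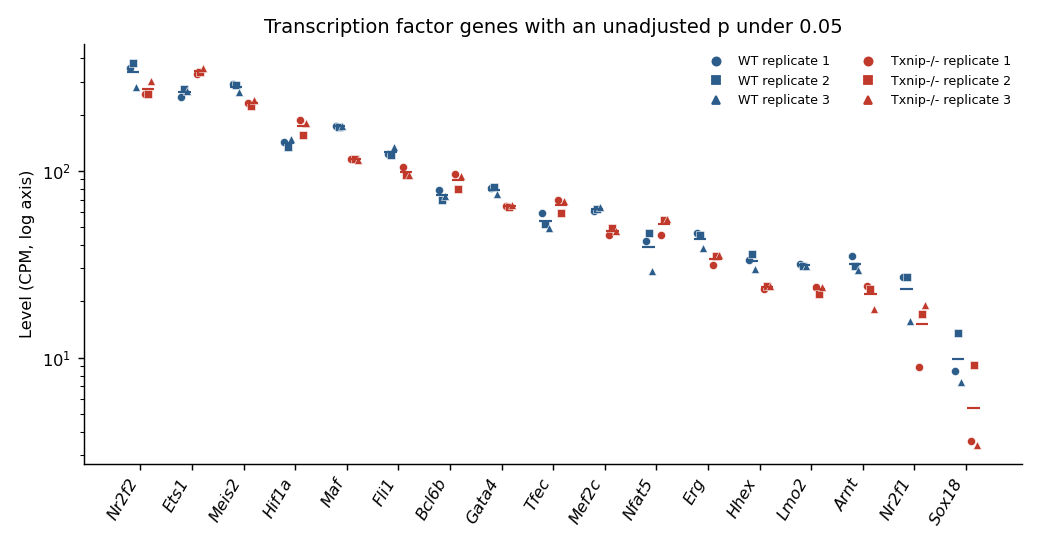
Level in CPM on a log axis of the 17 factor genes with an unadjusted p under 0.05, ordered by mean level, in each WT (blue) and *Txnip*-/- (red) library, with bars for the means. The *Maf* points of each genotype lie on top of each other, and WT replicate 3 (blue triangles) lies near the *Txnip*-/- points in *Nr2f2*, *Nr2f1* and *Erg*.

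HIF-1α (*Hif1a*) and HIF-2α (*Epas1*) are stabilised when oxygen is low and bind DNA as dimers with ARNT. *Hif1a* was at 187.3, 155.3 and 180.5 CPM in *Txnip*-/- and 142.6, 133.4 and 148.3 CPM in WT LSECs. *Arnt* was at 24.1, 23.3 and 18.2 against 34.9, 31.0 and 29.4 CPM. The first was higher and the second lower in every *Txnip*-/- library. Neither passed after adjustment (*Hif1a* log2 fold change 0.30, 95% interval 0.093 to 0.51, adjusted p = 0.189; *Arnt* -0.54, -0.90 to -0.18, adjusted p = 0.168; edgeR). The ratio of *Hif1a* to *Arnt* transcripts was 7.76, 6.66 and 9.93 in *Txnip*-/- and 4.08, 4.31 and 5.04 in WT libraries. Its lack of overlap follows from the separated levels of both genes and adds no evidence. *Epas1* was at 86.1, 92.6 and 84.2 against 94.0, 109.6 and 84.8 CPM and overlapped (-0.13, 95% interval -0.37 to 0.11).

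The promoters of *Hif1a* and *Arnt* are shown because the estimates of these dimer partners had opposite signs, although neither passed after adjustment. Each runs from 250 bases before to 50 after a RefSeq start on GRCm38.p6, at chr12:73907617-73907916 and chr3:95434140-95434439, both on the plus strand. The *Hif1a* window lies inside the GENCODE gene, downstream of its outermost start. Capitals mark matches, on either strand, to any of 5 short motifs searched. Factors of the GATA family were represented by the letters AGATAA, those of the ETS family by CGGAAG and those of the KLF family by CACCC. The core site of large MAF proteins was searched as TGCTGAC, and the core of the hypoxia response element as ACGTG.
Hif1a: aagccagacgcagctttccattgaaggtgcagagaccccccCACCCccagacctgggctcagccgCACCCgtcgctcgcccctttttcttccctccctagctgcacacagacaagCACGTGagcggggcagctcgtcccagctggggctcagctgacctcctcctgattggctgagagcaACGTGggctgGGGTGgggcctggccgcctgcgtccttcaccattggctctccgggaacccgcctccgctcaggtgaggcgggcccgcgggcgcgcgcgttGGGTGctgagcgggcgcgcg
Arnt: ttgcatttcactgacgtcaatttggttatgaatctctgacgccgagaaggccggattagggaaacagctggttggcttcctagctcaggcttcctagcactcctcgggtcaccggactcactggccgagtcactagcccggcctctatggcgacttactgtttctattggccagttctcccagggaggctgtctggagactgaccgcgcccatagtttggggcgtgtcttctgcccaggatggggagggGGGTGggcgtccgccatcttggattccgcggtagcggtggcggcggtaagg
The *Hif1a* window held 3 matches to ACGTG, of which 2 overlap in a palindrome, and 4 to CACCC, while the *Arnt* window held 0 and 1. Neither held the GATA, ETS or MAF letters. ACGTG occurred in 19.6% of all 32851 promoter windows and in 10 of 49 windows matched to 34 of the 53 factor genes. For CACCC the share was 57.5% of all windows and 32 of 49. CGGAAG occurred in 16.9% and 7 of 49, AGATAA in 11.2% and 2 of 49, and TGCTGAC in 4.67% and 1 of 49. These matches describe letters, not bound sites.

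*Tcf4*, a ubiquitous E-protein and dimer partner for TAL1-type factors, was the most abundant factor, 47th among the 11583 genes by mean level, with *Klf6* in place 51. It was at 1337, 1416 and 1369 CPM in *Txnip*-/- and 1570, 1551 and 1364 CPM in WT LSECs. WT replicate 3 lay inside the *Txnip*-/- range (log2 fold change -0.12, 95% interval -0.28 to 0.035). *Nfat5*, which answers osmotic stress, was at 45.6, 54.2 and 55.4 against 42.0, 46.4 and 29.1 CPM, with overlap (0.40, unadjusted p = 0.0262, adjusted p = 0.335). WT replicate 3 was its lowest library, and the estimate was 0.23 without it (adjusted p = 0.521) and 0.83 with it as the only WT library (adjusted p = 0.083). *Bcl6b*, an endothelial repressor, was at 96.1, 79.4 and 93.8 against 79.1, 69.7 and 73.4 CPM, higher without overlap by a narrow gap (0.28, adjusted p = 0.331). *Zeb1*, *Zeb2* and *Tead1*, factors of mesenchymal change and of Hippo signalling, overlapped between the genotypes (-0.044, 0.19 and 0.041).

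The remaining 5 factors were under the filter. *Prox1*, the master factor of lymphatic endothelium, had 1, 12 and 13 counts in *Txnip*-/- and 8, 7 and 4 in WT libraries. *Irx3* had 0, 0 and 5 against 18, 9 and 15 counts, *Tbx3* 7, 0 and 5 against 0, 5 and 0, and *Heyl* 0, 1 and 1 against 0, 0 and 5. *Tcf15*, a factor of fatty acid uptake in continuous capillaries, had 0 counts in all 6 libraries, where 3 counts in a library would be 0.294 to 0.328 CPM of its total.

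Genes around these factors were counted from lists of their own. Of 44 other members of the same families, 34 were tested, 2 fell, *Klf15* among them, and 0 rose, with a median log2 fold change of -0.0031. *Klf15*, a KLF of metabolic control, was at 1.68, 2.85 and 2.35 CPM in *Txnip*-/- and 6.33, 7.14 and 10.8 CPM in WT libraries (-1.81, SE 0.41, adjusted p = 0.0307). Among 42 cofactors and upstream regulators, 39 were tested and edgeR called 0, with a median of -0.012 and 3 higher and 2 lower at an unadjusted p under 0.05 (*Zfpm2*, *Nfe2l1* and *Nfe2l2* higher, *Hdac7* and *Id2* lower). *Zfpm2* (FOG2), a cofactor that modulates GATA4, had the smallest p of them. It was at 16.5, 10.4 and 12.4 CPM against 8.27, 5.91 and 5.50 CPM, higher without overlap (0.99, adjusted p = 0.108). DESeq2 called 0 of this list as well.

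Of 26 shear-response and KLF target genes, 22 were tested, 2 rose and 2 fell, and their median was 0.019. *Ccl2* rose from 780 ± 40.1 to 1448 ± 19.6 CPM (0.89, adjusted p = 1.01e-06). *Timp3*, a metalloproteinase inhibitor, fell from 520 ± 21.3 to 356 ± 3.48 CPM (-0.55, adjusted p = 0.000682) and *Aqp1*, a water channel, from 203 ± 23.0 to 147 ± 5.38 CPM (-0.47, adjusted p = 0.0214). *Eng* and *Tie1*, genes of all endothelium that respond to flow, were lower without overlap and did not pass (adjusted p = 0.104 and 0.0954).

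**Figure D5:**
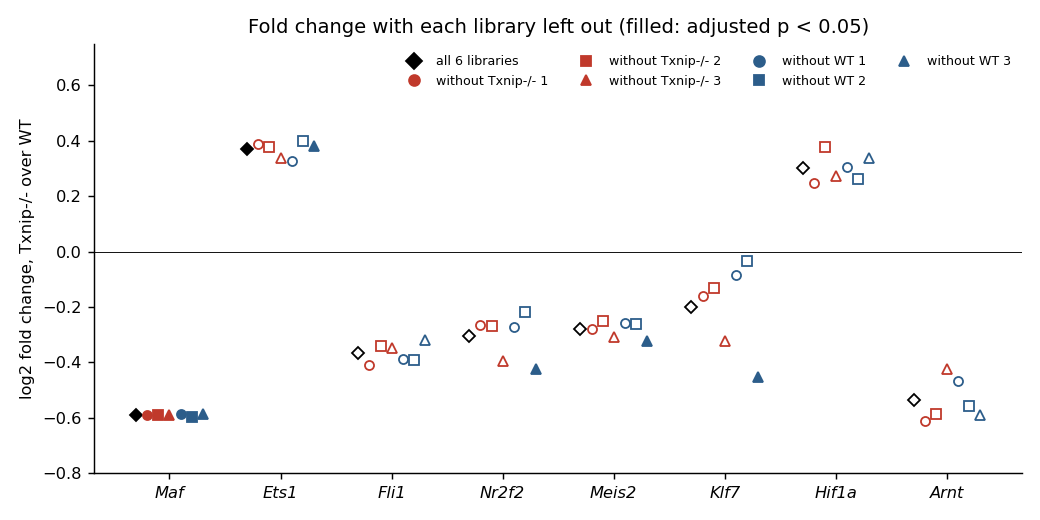
Log2 fold change of 8 factor genes in *Txnip*-/- over WT with all libraries (black diamond) and with each library left out (red without a *Txnip*-/- library, blue without a WT library; filled where the adjusted p is under 0.05). The *Maf* points are all filled and lie between -0.60 and -0.59, while *Nr2f2*, *Meis2* and *Klf7* are filled only without WT replicate 3 and *Ets1* only with all libraries or without WT replicate 3.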

How the data were processed

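RNA from 3 *Txnip*-/- and 3 WT LSEC samples was read by QuantSeq 3′ sequencing. The deposited values are raw counts per gene and library, made by the authors with Bowtie2 and bedtools on mm10, per the submitters' processing notes; versions, gene annotation and strand setting were not given in the sources used here. There were no molecular identifiers, so floors of counts cover counting error only. The intervals of log2 fold changes come from the same edgeR fit as the p-values and include the spread between libraries. Groups came from the sample labels.

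Counts were filtered with filterByExpr, scaled by TMM and tested with edgeR 4.0.16 (glmQLFit, glmQLFTest, R 4.3.3), *Txnip*-/- against WT over all 6 libraries. P-values were adjusted by Benjamini-Hochberg over 11583 genes, and a call is an adjusted p under 0.05. The steps were tested on simulated data. Alternatives were other scaling, filters, thresholds, DESeq2 1.42.0, limma-trend (limma 3.58.1), a replicate term and left-out libraries. Gene positions came from GENCODE M21 on GRCm38 and promoters from RefSeq GRCm38.p6.

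The members and the lists of other genes were chosen with earlier results of these data known. Values in every library were given for members with an unadjusted p under 0.05, the 10 most abundant, a chosen set of identity, flow and oxygen factors and those under the filter. From other lists, called genes were named, at most 6 a list. Genes beyond these were named after their values were seen. Of the symbols, 44 rows repeated one. Some genes of the other lists are counted but not reported here by name.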

Additional observations from a re-analysis of the deposited data

How the results depend on the processing

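*Maf* was called under every alternative. The count of factors called lower (1) became 2 without normalization factors, 2 with DESeq2, 2 at an adjusted p under 0.1, 3 without the low-count filter and 12 at an unadjusted p under 0.05, and lay between 1 and 4 with each library left out. The count called higher (1) became 0 without normalization factors, with the replicate number as a block, with WT replicates 1 and 2 left out together and with a fold change above 1.3 required, 5 at an unadjusted p, and 0 to 1 with a library left out. Other family members called lower (2) became 1 with the replicate block, 1 without both WT libraries and 1 to 1 with a library left out, and 1 was higher at an unadjusted p. Cofactors (0) gave 1 higher without the filter, 3 higher and 2 lower at an unadjusted p, and 0 to 1 lower with a library left out. Shear-response genes called lower (2) became 4 with DESeq2, 4 without the filter, 4 at an unadjusted p, 1 with the block and 1 to 3 with a library left out. LSEC markers called lower (4) became 7 without normalization factors, 8 with DESeq2, 10 without the filter, 8 at an adjusted p under 0.1, 14 at an unadjusted p, 1 with the block, 2 without both WT libraries and 1 to 9 with a library left out. The cause of these shifts was not tested.

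Among factors, directions turned only in genes without a call in the main fit. Under at least 1 alternative the direction also turned in *Etv6*, *Foxc1*, *Gata6*, *Klf7*, *Meis1*, *Sox7*, *Tead1* and *Zeb1*. Of these, *Klf7* was called lower without WT replicate 3 (-0.45) and turned upwards with it as the only WT library (0.50). Without normalization factors, which moved the median of all genes to -0.082, *Gata2* was at -0.060, *Klf9* -0.027, *Foxp1* -0.00024 and *Rbpj* -0.056. Without WT replicates 1 and 2, *Klf2* was at -0.32, *Klf6* 0.020, *Rbpj* -0.0069, *Epas1* 0.048 and *Tcf4* 0.012. With a library left out, *Gata2* ranged from -0.17 to 0.27, *Klf2* from -0.14 to 0.33, *Klf4* from -0.25 to 0.075, *Klf6* from -0.025 to 0.0090, *Foxf1* from -0.93 to 0.27 and *Rbpj* from -0.031 to 0.088. Same-numbered libraries did not deviate together (correlations -0.030, 0.017 and -0.047; 1 of 6 libraries was closest to its own number). Over all genes, 66 higher and 113 lower calls became 40 and 68 with the block, 124 and 178 with DESeq2, 36 and 150 without normalization factors, 124 and 222 without the filter, 54 and 57 without both WT libraries, and 137 and 230 without WT replicate 3.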

Other observations

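Of 18 markers of continuous capillaries and large vessels, 14 were tested, with a median log2 fold change of 0.30, beside -2.75e-05 over all tested genes, and 2 calls in opposite directions. At an unadjusted p under 0.05, 6 were higher and 2 lower. Without overlap, 7 were higher and 3 lower, or 50% and 21.4% against 8.43% and 8.94% of all tested genes. By the estimate alone, 9 were higher and 5 lower. The 5 included *Cd34* (-0.66), *Plvap* (-0.34) and *Emcn* (-0.21), none of them called, and *Vwf* and *Ly6c1* were under the filter. Among the 9, *Rgs5*, *Stc1* and *Vegfc* were sparse, at means of 1.11, 1.65 and 4.18 CPM. *Rspo3*, a Wnt-enhancing ligand made by central vein endothelium, rose from 9.87 ± 2.59 to 25.3 ± 2.69 CPM (SD over 3 libraries; log2 fold change 1.35, adjusted p = 0.00302, edgeR). *Esm1*, a proteoglycan of endothelial tip cells, fell from 1121 ± 37.2 to 774 ± 64.7 CPM (-0.53, adjusted p = 0.000898). Of 10 pan-endothelial markers *Robo4*, a guidance receptor of stable endothelium, fell from 401 ± 40.8 to 308 ± 18.7 CPM (-0.38, adjusted p = 0.0465), and the median was -0.17. Of 5 lymphatic markers 3 were tested, and of 5 cholangiocyte markers 1, with no call by edgeR among them.

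*Lyve1*, a hyaluronan receptor and the most abundant LSEC marker, was at 1475, 1642 and 1976 CPM in *Txnip*-/- and 3482, 3780 and 1520 CPM in WT libraries. WT replicate 3 fell inside the *Txnip*-/- range, as it did for *Nr2f2* (log2 fold change -0.79, adjusted p = 0.088). WT replicate 3 lay nearer to the *Txnip*-/- mean than to the mean of WT replicates 1 and 2 in 17 of the 48 factors. The same count was not made over all tested genes, so this number shows nothing particular to the factors.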
